A study of Saccharomyces cerevisiae with 4 samples.

Results

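Swc4 peaks were examined at 5 genes of budding yeast, Saccharomyces cerevisiae, that RNA polymerase III transcribes and that encode no tRNA: SCR1, RPR1, SNR6, SNR52 and RNA170. They were taken by name from the R64 gene table, in which they are 5 of 6431 nuclear genes, beside 275 nuclear tRNA genes. The 5S ribosomal RNA genes are not among them. No measured value enters the rule that lists them, but the list was drawn up with earlier results of these data known. DNA bound to Swc4 carrying a 13myc tag was recovered by immunoprecipitation and sequenced (ChIP-seq), in haploid cells of the BY background grown untreated in rich medium to mid-log phase and precipitated with a myc antibody. The yaf9d cells, in which the titles name a deletion of YAF9, and the wild-type cells have 2 libraries each, and both carry Swc4-13myc. The genotype entry of the yaf9d samples gives the tag alone, so samples were grouped by title. Separate cultures are not stated for the libraries of 1 genotype, so the p-values measure only the spread between these libraries, which may be technical.

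RNA polymerase III makes short untranslated RNAs. At most of its genes the factor TFIIIC binds a pair of DNA elements, the A box and the B box, and places TFIIIB, which recruits the polymerase. In tRNA genes and SCR1 these boxes lie inside the transcribed RNA. In RPR1 and SNR52 they lie in a transcribed leader that is later cut off, so they are upstream of the mature RNA. SNR6 has its B box downstream of the RNA and a TATA element upstream. SCR1 encodes the RNA of the signal recognition particle, which brings secretory proteins to the endoplasmic reticulum. RPR1 encodes the RNA of ribonuclease P, which trims the leaders of tRNA precursors. SNR6 encodes the U6 RNA of the spliceosome, SNR52 a small nucleolar RNA (snoRNA) that guides methylation of ribosomal RNA, and RNA170 an RNA without an assigned role here. Swc4 is shared by the SWR1 remodeler, which deposits histone H2A.Z, and by NuA4, a histone acetyltransferase, and Yaf9 is a subunit of both.

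SCR1 and RPR1 had a Swc4 peak in all 4 libraries, SNR52 in 1 library of each genotype and SNR6 in none. RNA170 was reached in 1 library of each genotype by a peak with its summit inside the neighbouring gene ERG2. Counting only summits in the gene or its 300 bp flanks, 2 of the 5 genes had a peak in replicate 2 of each genotype. The main rule counted a gene as having a peak when a listed peak overlapped it or its 300 bp flanks by at least 1 bp. By this rule 3 of the 5 genes had a peak in yaf9d replicates 1 and 2 and likewise in wild-type replicates 1 and 2. The genotype means were 3 ± 0 and 3 ± 0 genes (SD, n = 2 each; permutation p = 1, exact and two-sided). The share of all nuclear genes with a peak was 13.2% and 21.0% in yaf9d and 19.4% and 17.7% in wild-type. For tRNA genes the share was 35.6% and 38.9% in yaf9d and 23.3% and 27.6% in wild-type. A peak in all 4 libraries was present at 2 of the 5 genes, against 5.50% of nuclear genes and 13.5% of tRNA genes. With 2 libraries against 2, the smallest two-sided p is 0.333, so no genotype difference below could pass 0.05.

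The lists held 616 and 1139 nuclear peaks in yaf9d replicates 1 and 2 and 884 and 704 in wild-type replicates 1 and 2. The fold is the authors' value for a summit relative to its local background, with medians of 2.50 and 1.80 in yaf9d and 1.83 and 1.92 in wild-type. Each list stops at a −log10 q-value near 1.31, and a gene without a listed peak is not shown to be unbound. Folds are given with the rank of the peak by fold in its own list, as a percentage with the strongest peaks near 0%.

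**Figure D1:**
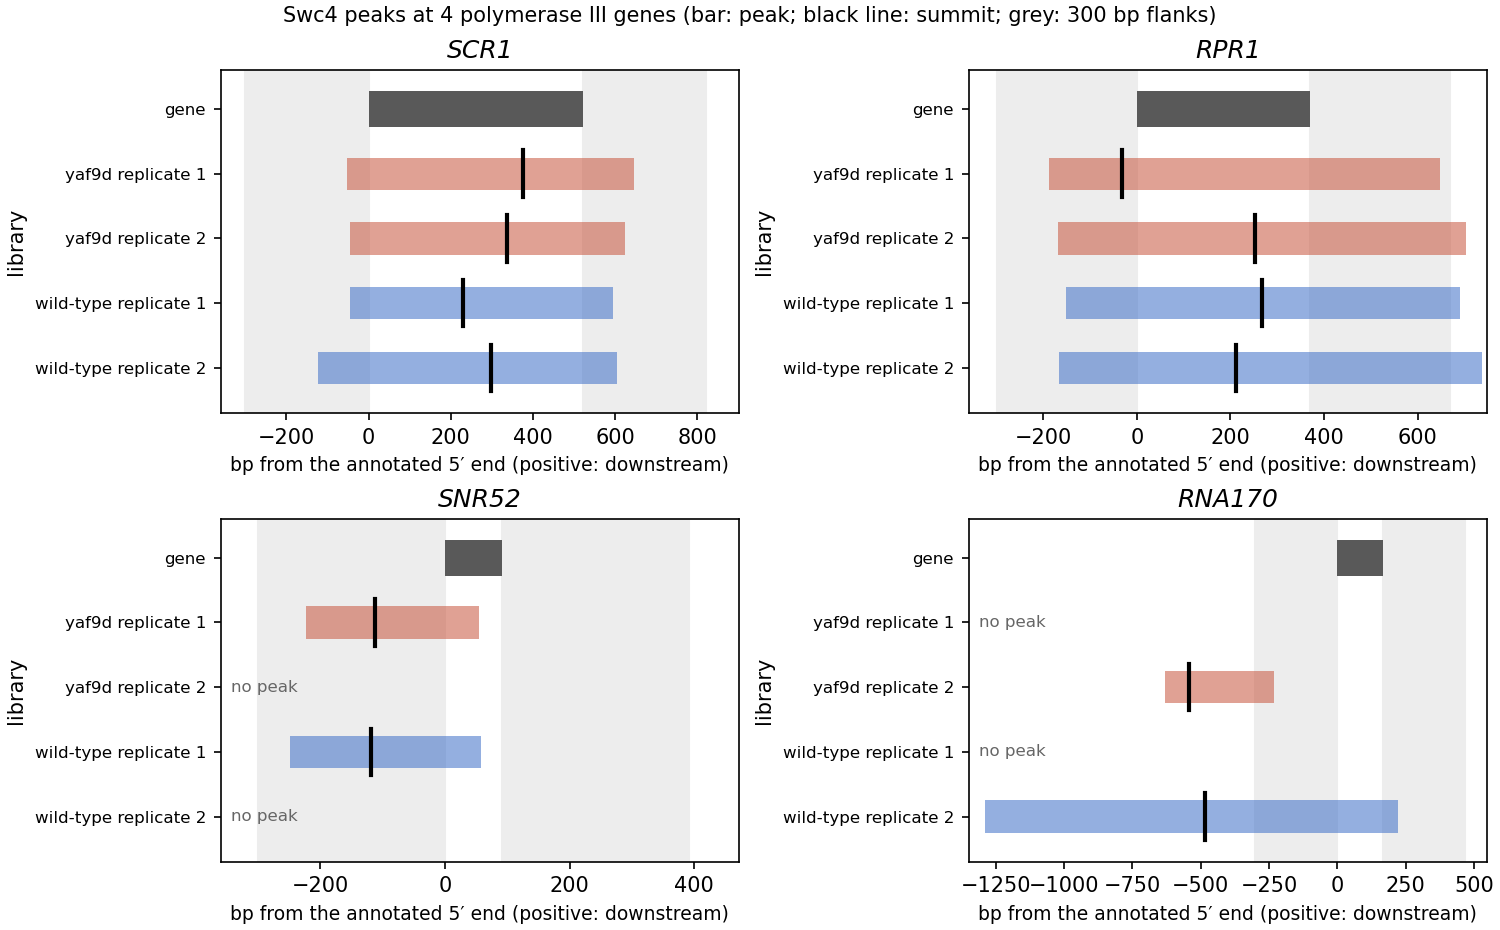
Listed peaks (bars) and summits (black lines) at SCR1, RPR1, SNR52 and RNA170, 1 row per library with yaf9d above wild-type, against the distance in bp from the annotated 5′ end in the direction of transcription; the dark bar is the gene and grey shading its 300 bp flanks. SCR1 and RPR1 were spanned in all 4 libraries, SNR52 summits lay 113 and 119 bp upstream of the gene, and RNA170 summits lay 544 and 485 bp upstream, beyond the flank.

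At SCR1, each library listed 1 peak, and in all 4 it spanned the whole gene of 522 bp. The peak ran on chromosome V from 441934 to 442632 in yaf9d replicate 1 and from 441941 to 442611 in yaf9d replicate 2. It ran from 441941 to 442581 in wild-type replicate 1 and from 441864 to 442592 in wild-type replicate 2. Any pair of libraries shared between 85.7% and 96.0% of their united span. No other annotated gene lay under these peaks. The divergent open reading frame YER137C begins 168 bp from SCR1, and the summits lay 545 and 506 bp from that start in yaf9d and 398 and 466 bp in wild-type.

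SCR1 folds were 4.91 and 3.97 in yaf9d replicates 1 and 2, against 2.64 and 3.42 in wild-type replicates 1 and 2. Both yaf9d libraries lay above both wild-type libraries, with means of 4.44 ± 0.67 and 3.03 ± 0.55 (SD, n = 2 each; exact permutation p = 0.333). The same order held for 47.2% of all nuclear genes, and for 70.3% of tRNA genes, among those with a peak in every library. The −log10 q-values were 129.7 and 107 in yaf9d and 42.8 and 67.4 in wild-type, and 61.0% of those nuclear genes had the same order. By rank within the list the genotypes overlapped: SCR1 stood at 16.1% and 8.60% in yaf9d and at 15.4% and 12.2% in wild-type. Its mean rank was 12.3 ± 5.3% in yaf9d and 13.8 ± 2.2% in wild-type (SD, n = 2 each; exact permutation p = 1). The difference of -1.46 percentage points was smaller than the spread between replicates, and its sign turned when yaf9d replicate 2 or wild-type replicate 1 was left out (2.27 and 0.12 points).

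The pileup, the number of reads stacked at the summit on the scale of the peak caller, was recovered from the fold and the p-value of each peak. At SCR1 it was 374 and 393 in yaf9d, over local backgrounds of 75.4 and 98.4. In wild-type it was 288 and 299, over backgrounds of 108.6 and 86.8. The pileups of the genotypes did not overlap (exact permutation p = 0.333), an order shared by 56.8% of nuclear genes with solved peaks in every library, while the backgrounds overlapped. By the overlap rule, which takes in peaks with a summit outside the gene, 0 of 98 and 1 of 107 tRNA genes with a peak in yaf9d had a higher pileup than SCR1, and 2 of 64 and 2 of 76 in wild-type. Its background was also above that of most: 94 and 101 of those tRNA genes in yaf9d, and 60 and 70 in wild-type, had a lower one.

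**Figure D2:**
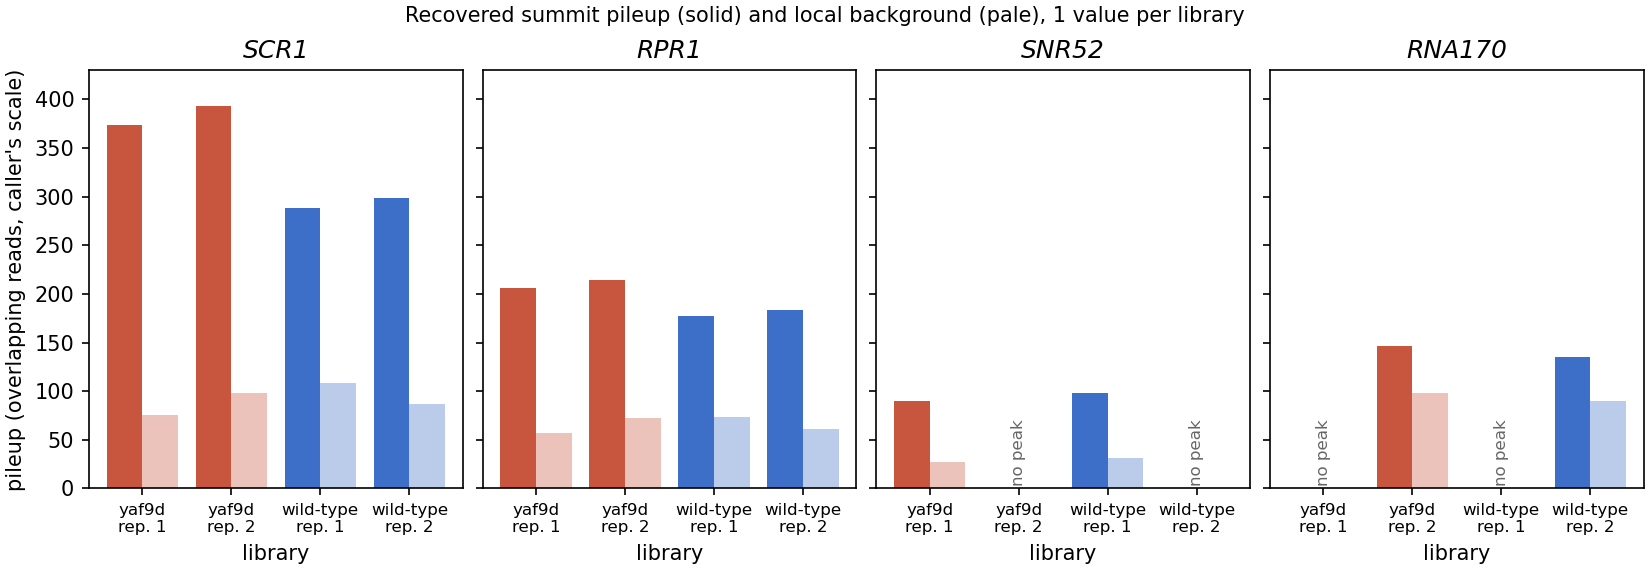
Summit pileup (solid bars) and local background (pale bars) recovered from the listed fold and p-value, on the peak caller's scale, for each gene and library, with yaf9d left of wild-type and 1 value per bar. SCR1 pileups were 374 and 393 in yaf9d and 288 and 299 in wild-type, and the SNR52 peaks had the lowest backgrounds shown, 27.3 in yaf9d and 31.1 in wild-type.

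Summits at SCR1 lay inside the gene in every library. They were 377 and 338 bp past the 5′ end in yaf9d and 230 and 298 bp past it in wild-type, or 72.4% and 64.9% against 44.1% and 57.2% of the way along. Both yaf9d summits were thus farther from the 5′ end than both wild-type summits (means of 357.5 ± 27.6 and 264 ± 48.1 bp, SD, n = 2 each; exact permutation p = 0.333). Among the 37 tRNA genes with a peak in every library, 10.8% had both yaf9d summits downstream of both wild-type summits and 21.6% had them upstream. Those genes are shorter than SCR1, and the share over all nuclear genes was not computed. Over the 4 libraries the SCR1 summits differed by up to 147 bp, while starts differed by at most 77 bp and ends by at most 51 bp. As a summit can move within such a peak, the order is given by value only.

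At RPR1, each library again listed 1 peak that spanned the whole gene of 369 bp. It ran on chromosome V from 117387 to 118223 and from 117331 to 118204 in yaf9d replicates 1 and 2. In wild-type replicates 1 and 2 it ran from 117344 to 118186 and from 117298 to 118202. These peaks also covered the last 88 and 144 bp of TIM9, a gene of mitochondrial protein import, in yaf9d, and the last 131 and 177 bp in wild-type. TIM9 and RPR1 converge, and the nearest coding start, that of TIM9, lay 456 bp from RPR1.

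RPR1 folds were 3.57 and 2.91 in yaf9d, against 2.38 and 2.97 in wild-type, and the genotypes overlapped. The means were 3.24 ± 0.47 in yaf9d and 2.68 ± 0.42 in wild-type (SD, n = 2 each; exact permutation p = 0.667). The −log10 q-values, 49.7 and 38.1 in yaf9d and 21.5 and 33.5 in wild-type, did not overlap. With a peak in every library, 61.0% of nuclear genes and 81.1% of tRNA genes had the same order. Ranks were 28.7% and 18.8% in yaf9d and 21.4% and 18.3% in wild-type. Their means of 23.8 ± 7.0% and 19.9 ± 2.2% differed by 3.91 points (SD, n = 2 each; exact permutation p = 0.667), less than the spread in yaf9d, and by -1.06 points without yaf9d replicate 1. Pileups were 206 and 214 in yaf9d over backgrounds of 57.0 and 72.8, and 177 and 183 in wild-type over 73.8 and 61.0. The pileups did not overlap between genotypes, as at SCR1. That order was shared by 56.8% of nuclear genes and 78.4% of tRNA genes with solved peaks in every library.

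The RPR1 summit moved within a nearly fixed interval. It lay 252 bp past the 5′ end in yaf9d replicate 2 and 268 and 212 bp past it in wild-type, near the middle of the RNA or toward its 3′ end. In yaf9d replicate 1 it lay 32 bp upstream of the 5′ end, in the leader. Starts of the peak differed by at most 89 bp and ends by at most 37 bp over the 4 libraries, while summits differed by up to 300 bp. A single listed summit therefore does not fix a position within this peak.

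At SNR52, the peak was listed in replicate 1 of each genotype and in neither replicate 2. It ran on chromosome V from 431165 to 431443 in yaf9d replicate 1 and from 431163 to 431468 in wild-type replicate 1, and the summits were 6 bp apart. They lay 113 bp upstream of the 5′ end of the snoRNA in yaf9d and 119 bp upstream in wild-type. No other annotated gene was under the peak, and the nearest coding start, that of PMD1, was 884 bp from the summit in yaf9d and 890 bp in wild-type. The peaks covered 60.9% and 63.0% of the gene of 92 bp.

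The SNR52 fold was 3.22 in yaf9d replicate 1 and 3.08 in wild-type replicate 1. These stood at 34.7% of the yaf9d list (exact 95% binomial interval 31.0 to 38.6, counting error only) and at 10.6% of the wild-type list (8.68 to 12.9). The intervals treat listed peaks as independent draws and hold no spread between libraries, so they do not compare the genotypes. By −log10 q-value the ranks were 45.9% in yaf9d and 23.1% in wild-type. The −log10 q-values were 18.9 and 19.0. The pileups, 90 in yaf9d and 98 in wild-type, were below those of most tRNA genes, with 93 of 98 and 55 of 64 higher. The backgrounds were low as well, at 27.3 and 31.1, and only 15 of 610 solved peaks in yaf9d replicate 1 and 4 of 880 in wild-type replicate 1 had a lower one. The part of this background in the fold was not tested.

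Peaks with at least the fold of SNR52 were mostly called again in the other library of the genotype. By pileup, SNR52 ranked only 476 of 610 solved peaks in yaf9d replicate 1 and 665 of 880 in wild-type replicate 1. The shares below are for peaks at or above the fold of SNR52, which lies at the lower limit of that range. They therefore do not give the recurrence of peaks alike in fold. Recurrence of peaks with a like fold or a like pileup was not tested. Of 214 peaks in yaf9d replicate 1 with at least its fold, 201 (93.9%) overlapped a peak of yaf9d replicate 2. Of 94 such peaks in wild-type replicate 1, 86 (91.5%) overlapped one of wild-type replicate 2. Among tRNA genes with at least that fold, 45 of 47 in yaf9d and 9 of 11 in wild-type had a peak in the other replicate. A peak in replicate 1 of each genotype and in neither replicate 2 was present at 0.513% of nuclear genes and 0.364% of tRNA genes. The nearest listed peak to SNR52 was 2738 bp away in yaf9d replicate 2 and 6790 bp away in wild-type replicate 2. Of the other 75 snoRNA genes, most of which polymerase II transcribes, 8 and 17 had a peak in yaf9d and 20 and 30 in wild-type. These are 10.7% and 22.7% in yaf9d and 26.7% and 40% in wild-type, beside 13.2% and 21.0% of all nuclear genes in yaf9d and 19.4% and 17.7% in wild-type. In replicate 1 of yaf9d 4 of these had a higher fold than SNR52, and in replicate 1 of wild-type also 4.

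RNA170 met the overlap rule in replicate 2 of each genotype, through peaks centred on its neighbour. In yaf9d replicate 2 the peak ran on chromosome XIII from 667688 to 668087, wholly inside ERG2, a gene of ergosterol synthesis, and reached only the flank of RNA170. In wild-type replicate 2 it ran from 667234 to 668747 and covered RNA170, ERG2 and 256 bp of TOM40. The summits lay 544 bp upstream of RNA170 in yaf9d and 485 bp upstream in wild-type, which is 463 and 404 bp into ERG2. Folds were 1.49 in both, with −log10 q-values of 4.13 in yaf9d and 3.76 in wild-type. They stood at 80.0% and 86.8% of their lists. By the summit, 0 libraries had a peak at RNA170 or its flanks. A peak in replicate 2 of each genotype alone was present at 1.20% of nuclear genes and 2.55% of tRNA genes.

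At SNR6, no library listed a peak over the gene of 112 bp or its flanks. The nearest peaks were 4132 and 3328 bp away in yaf9d and 3342 and 33448 bp away in wild-type. Those of yaf9d replicate 2 and wild-type replicate 1 lay over CCW12, a cell wall gene. The nearest coding gene, YLR108C, ends 320 bp downstream of SNR6.

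By fold, set against tRNA genes of the same library, SCR1 was in the upper part of the range, RPR1 and SNR52 near or above the middle, and RNA170 near the bottom. Median folds of tRNA genes with a peak were 3.17 and 3.03 in yaf9d and 2.31 and 2.47 in wild-type. SCR1 was above these medians by 0.63 and 0.39 on the log2 scale in yaf9d and by 0.19 and 0.46 in wild-type. Of tRNA genes with a peak, 6 of 98 and 15 of 107 in yaf9d, and 21 of 64 and 7 of 76 in wild-type, had a higher fold than SCR1. The genotype means of this log2 ratio, 0.51 ± 0.17 and 0.33 ± 0.20 (SD, n = 2 each), differed by 0.18 (exact permutation p = 0.667). This is within the spread between replicates, and the difference was 0.06 without yaf9d replicate 1 and 0.05 without wild-type replicate 1.

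RPR1 stood at 0.17 and -0.06 against the tRNA median on the log2 scale in yaf9d, and at 0.04 and 0.26 in wild-type. Of tRNA genes with a peak, 31 and 63 in yaf9d and 29 and 23 in wild-type had a higher fold than RPR1. The genotype means were 0.06 ± 0.16 and 0.15 ± 0.16 (SD, n = 2 each; exact permutation p = 0.667), with a difference of -0.09 that was 0.02 without yaf9d replicate 2 or without wild-type replicate 2. SNR52 stood at 0.02 in yaf9d replicate 1 and at 0.41 in wild-type replicate 1. Its yaf9d value was -0.16 against the tRNA genes with a peak in all 4 libraries, and by −log10 q-value in place of the fold its values were -0.52 in yaf9d and 0.086 in wild-type, so its place relative to the tRNA median depends on the measure. RNA170 stood at -1.03 in yaf9d replicate 2 and at -0.73 in wild-type replicate 2 on the same scale. The highest tRNA folds were 5.24 at SUF8 in yaf9d replicate 1, and 3.30 at IMT4 and 3.85 at SUF8 in wild-type, all with summits inside the gene. In yaf9d replicate 2 the highest fold by the overlap rule, 5.63, came from a peak that reached YNCE0005W with its summit at -1322.5 bp from the middle of the gene, so it belongs to a site outside the gene and its flanks. Copies of a tRNA gene can be almost the same in sequence, and the placing of reads they share is not given in the sources used here.

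**Figure D3:**
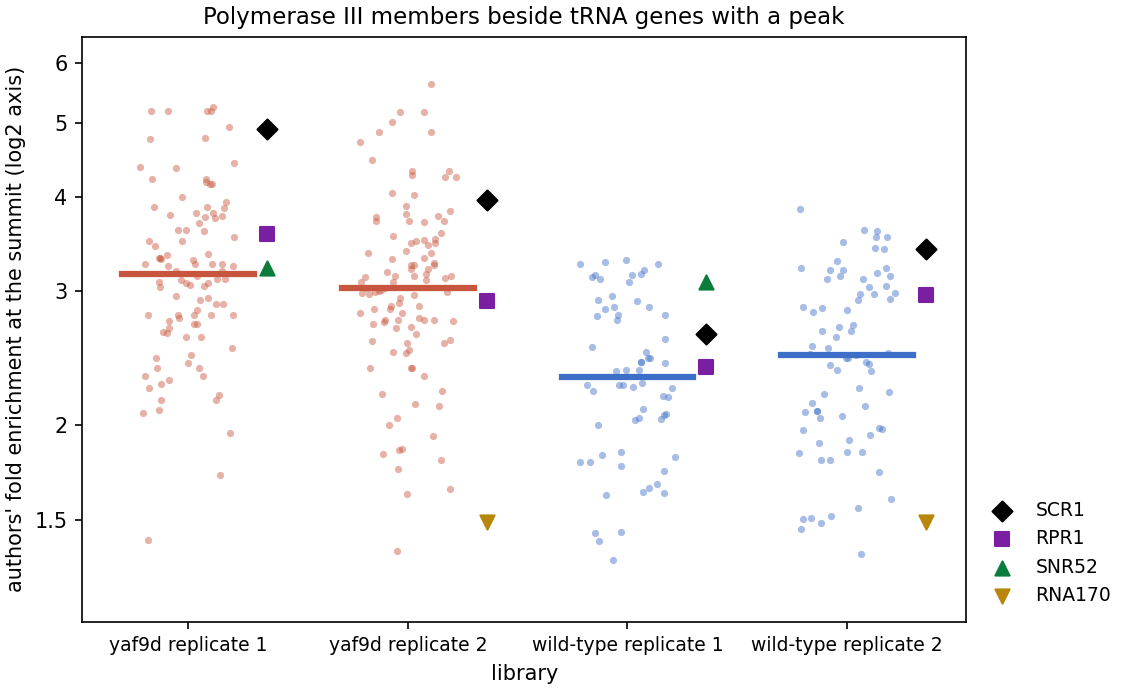
Authors' fold enrichment at the summit, on a log2 axis, for each tRNA gene with a peak (dots; line, median) and for SCR1, RPR1, SNR52 and RNA170 (symbols), 1 column per library with yaf9d left of wild-type; tRNA genes under 1 peak share its value. SCR1 folds of 4.91 and 3.97 in yaf9d and 2.64 and 3.42 in wild-type lay above the tRNA medians of 3.17, 3.03, 2.31 and 2.47 in the same libraries, and RNA170 lay near the bottom.

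The number of tRNA genes with a peak, unlike that of the 5 genes, did not overlap between genotypes. It was 98 and 107 in yaf9d, against 64 and 76 in wild-type, with means of 102.5 ± 6.4 and 70 ± 8.5 genes (SD, n = 2 each; exact permutation p = 0.333). Over all nuclear genes the counts overlapped, at 849 and 1349 in yaf9d and 1249 and 1139 in wild-type. A difference between tRNA genes and the 5 genes in this respect was not tested.

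Peak widths and summit positions were compared by value with those of tRNA genes, without a test, and SNR6 has neither. Widths at SCR1 were 699 and 671 bp in yaf9d and 641 and 729 bp in wild-type, and at RPR1 837 and 874 bp in yaf9d and 843 and 905 bp in wild-type. The median width over tRNA genes was 350.5 and 328 bp in yaf9d and 424.5 and 551 bp in wild-type. A wider peak than that of SCR1 was present at 8 of 98 and 11 of 107 tRNA genes with a peak in yaf9d. In wild-type it was present at 10 of 64 and 25 of 76. A wider peak than that of RPR1 was present at 6 tRNA genes in each yaf9d library and at 6 and 16 in wild-type. The genes themselves are longer than a tRNA gene, and the part of gene length in the width was not tested. At SNR52 the peaks were 279 bp wide in yaf9d and 306 bp in wild-type, and those that met the rule at RNA170 were 400 bp wide in yaf9d and 1514 bp in wild-type. Summits at tRNA genes lay at medians of 10 and 11 bp past the middle of the gene in yaf9d and 23.8 and 21.8 bp in wild-type, with 86.7%, 80.4%, 70.3% and 61.8% within 100 bp in the same order. From the middle of SCR1 the summits lay at 116.5 and 77.5 bp in yaf9d and at -30.5 and 37.5 bp in wild-type. From the middle of RPR1 they lay at -216 and 68 bp in yaf9d and at 84 and 28 bp in wild-type. The SNR52 summits lay at -158.5 bp in yaf9d and -164.5 bp in wild-type. Both SNR52 summits and that of RPR1 in yaf9d replicate 1 were thus outside the 100 bp window on the upstream side. That of SCR1 in yaf9d replicate 1 was outside the window on the downstream side, though still inside the gene. SCR1 and RPR1 are longer than a tRNA gene, so the window covers a smaller part of them.

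**Figure D4:**
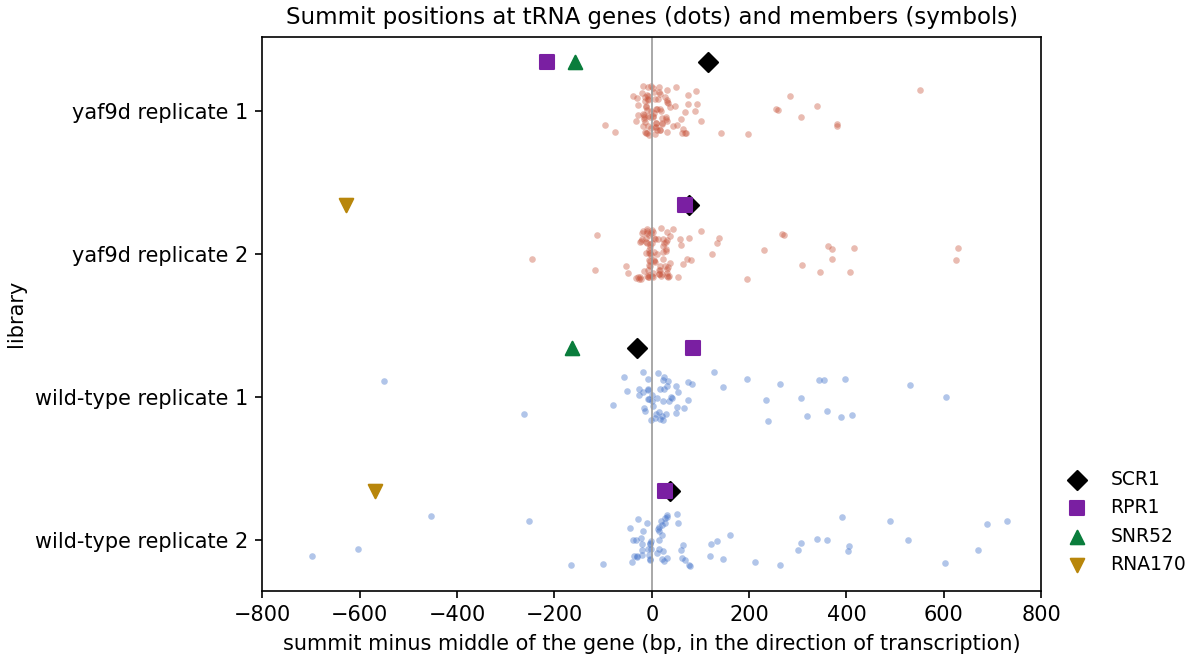
Distance of the summit from the middle of the gene in bp, positive downstream, for tRNA genes with a peak (dots) and for SCR1, RPR1, SNR52 and RNA170 (symbols), 1 row per library with yaf9d above wild-type; 7 tRNA values lie beyond the axis. SNR52 summits at -158.5 and -164.5 bp and RNA170 summits at -628 and -569 bp lay upstream of most tRNA summits.

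The genes most like SCR1 in rank over the 4 libraries were a pair of tRNA genes and their neighbours. The comparison took in 352 other genes with a peak in every library, outside the peaks of SCR1 itself. Among them, YNCD0011W and YNCD0012W shared 1 peak with TGL2, a lipase gene, and UBC5, a gene for a ubiquitin-conjugating enzyme. Their ranks of 14.6% and 7.20% in yaf9d and 13.2% and 13.5% in wild-type differed from those of SCR1 by 1.61 percentage points (root mean square over 4 libraries). The genes most like RPR1 were YLR256W-A and HAP1, the gene of a haem-responsive transcription factor, at 3.81 and 3.84 points, and GPD1, a gene of glycerol synthesis, at 4.12 points. GPD1 folds were 3.35 and 2.50 in yaf9d and 2.54 and 3.15 in wild-type. In both yaf9d libraries and wild-type replicate 1, the tRNA gene YNCD0004W had the same folds as GPD1. The summits there lay 49, 24 and 54 bp past the middle of YNCD0004W, which was named after its values were seen. The tRNA gene YNCE0025C, named after its values were seen, lies 693 bp downstream of SCR1 and had a peak of its own in yaf9d replicate 2 alone, with a fold of 3.08.

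Genes for the proteins that transcribe or bind these RNAs were counted by the same overlap rule. In each yaf9d library the share with a peak was below that of all nuclear genes in the 3 lists that follow, and in wild-type it lay on either side of it. No list was tested against other genes. Of 17 genes for polymerase III subunits, 0 and 2 had a peak in yaf9d and 4 and 3 in wild-type. Of 11 genes for TFIIIA, TFIIIB, TFIIIC and the repressor Maf1, 0 and 1 had one in yaf9d and 2 and 1 in wild-type. Of 30 genes for protein partners of the RNAs, 3 and 5 had one in yaf9d and 4 and 8 in wild-type. As percentages, the lists ran from 0% to 10% in yaf9d replicate 1, from 9.09% to 16.7% in yaf9d replicate 2, from 13.3% to 23.5% in wild-type replicate 1 and from 9.09% to 26.7% in wild-type replicate 2, beside the 13.2%, 21.0%, 19.4% and 17.7% of nuclear genes given above.

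RPR2, which encodes a protein subunit of ribonuclease P, was the listed gene with a peak in all 4 libraries, with folds of 1.65 and 1.80 in yaf9d and 1.65 and 2.10 in wild-type. The following were named after their values were seen. RPC37, a polymerase III subunit gene, and BDP1, which encodes a TFIIIB subunit, had no listed peak in yaf9d and one in each wild-type library, with BDP1 folds there of 1.78 and 1.51. SRP54, which encodes the GTPase subunit of the signal recognition particle, had no listed peak in yaf9d and folds of 2.32 and 2.44 in wild-type. LHP1, for the yeast La protein that binds new polymerase III transcripts, had no listed peak in yaf9d and folds of 2.22 and 1.80 in wild-type. LSM3, for a subunit of the ring that binds U6, had 3.09 and 2.38 in yaf9d and no listed peak in wild-type. A peak in both wild-type libraries alone was present at 3.47% of nuclear genes, and one in both yaf9d libraries alone at 2.39%.

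Small RNA genes of polymerase II served as a comparison. Of LSR1, SNR19, SNR14, TLC1 and NME1, 0 and 1 had a peak in yaf9d and 1 and 3 in wild-type. With 5 genes these are 0% and 20% in yaf9d and 20% and 60% in wild-type, beside the same shares of all nuclear genes (13.2% and 21.0% in yaf9d, 19.4% and 17.7% in wild-type). NME1, whose RNA is related to that of ribonuclease P, had none in any library. LSR1, the U2 RNA gene, had folds of 1.88 in yaf9d replicate 2 and 1.39 and 1.52 in wild-type, below SCR1 and RPR1 in the same libraries.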

How the data were processed

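One peak list per library was analysed, not pooled. The tools named in the submitters' processing notes are MACS2 (no version beyond 2), SAMtools 1.4 and BWA 0.7.15-r1140. What each did, the build, the control and the threshold are not stated. The authors' deposited lists give a fold ratio, a −log10 p-value, a −log10 q-value, a summit offset and a score, which is the −log10 q-value times 10 without decimals and was not used.

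Summits and starts are 1-based. Peaks on 16 nuclear chromosomes were matched to the RefSeq R64 table with Python 3.11.15, pandas 2.3.3 and SciPy 1.17.1. As the build is not named, gene coordinates are not printed. Over the 4 libraries there were 345 tRNA gene peaks, taking the highest fold per gene. Of these, 298 had the summit within 300 bp of the gene middle, and 263 of the 298 (88.3%) had it within 100 bp. Pileups are whole numbers that gave the listed fold, as pileup plus 1 over background plus 1, and the Poisson p-value within 0.001. They were solved for 99.0%, 99.5%, 99.5% and 99.9% of peaks in yaf9d replicates 1 and 2 and wild-type replicates 1 and 2, and with 1 solution for each peak of the 5 genes. No read totals were used, so depth is known only from these pileups.

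The genotype test was a permutation test, exact and two-sided, of 4 library values, and folds were compared within lists. The overlap rule was checked on peaks planted near real genes, and the pileup recovery on simulated folds and p-values. The permutation test was checked on a fixed example. The 5 genes and the gene lists were chosen with earlier results of these data known, and SNR7 had no single match in the table. Named were the 5 genes, the 3 genes nearest in rank to SCR1 and RPR1 (ties kept), genes in their flanks, the highest tRNA gene per library and listed genes with a peak in all 4 libraries. Alternatives were another flank, summits alone, fold and q-value minimums, 50 bp of overlap, ranking by q-value, leaving out each library and pairing by replicate number.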

Additional observations from a re-analysis of the deposited data

Results flagged for a closer look

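Outside the nuclear chromosomes, yaf9d replicate 2 listed 39 mitochondrial peaks, against 0 in yaf9d replicate 1 and 0 in each wild-type library. They were used in no comparison.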

How the results depend on the processing

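The count of 3 of 5 genes in each library was 2 in yaf9d replicate 2 when the peak had to touch the gene itself (yaf9d minus wild-type -0.5). It was 2 in replicate 2 of each genotype by summits, by a fold of 2 or more and by a −log10 q-value of 5 or more, since RNA170 dropped out, and the genotype difference stayed at 0 under these, a 500 bp flank and 50 bp of overlap. The tRNA gene difference of 32.5 was between 35 and 44.5 under the other peak rules except 50 bp of overlap (32.5), and between 26.5 and 38.5 with 1 library left out. With 1 library left out, the rank difference was between -5.20 and 2.27 points at SCR1 and between -1.06 and 8.88 at RPR1, and the log2 ratio to the tRNA median between 0.045 and 0.32 at SCR1 and between -0.21 and 0.021 at RPR1. SNR52 in yaf9d replicate 1, at 0.02 over the tRNA median, was at -0.16 against tRNA genes with a peak in all 4 libraries and at -0.52 by −log10 q-value, which also put SNR52 in wild-type replicate 1 at 0.086 in place of 0.41, and RNA170 at -2.87 in yaf9d replicate 2 in place of -1.03 and at -2.10 in wild-type replicate 2 in place of -0.73. The causes were not tested. The SNR52 rank by −log10 q-value was 45.9% in yaf9d replicate 1, against 34.7% by fold. In wild-type replicate 1 it was 23.1%, against 10.6% by fold. Ranked by fold among peaks with a −log10 q-value of 5 or more, SNR52 stood at 43.5% in yaf9d and 15.1% in wild-type.

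Pairing libraries by replicate number, as a block, left the differences at 0 genes, 32.5 tRNA genes, -1.46 and 3.91 points of rank and 0.18 and -0.09 in log2 ratio for SCR1 and RPR1, with exact sign-flip p of 0.5 or more. Nothing in the labels says that a number marks a shared batch, and deviations of same-numbered libraries correlated at -0.08 over 233 distinct sets of folds. Folds exist only for listed peaks, so this value does not address peaks listed under 1 replicate number alone, as at SNR52 and RNA170.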
